A study of Mus musculus with 7 samples.

Results

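Fibroblast-like cells (Fb_like) were examined in droplet single-cell RNA profiles of wild-type mouse hearts, in which every cell carries a MULTI-seq barcode, a lipid-anchored DNA tag that names the sample it came from. They were the cells whose deposited final type was fibroblast-like, less any cell the annotation marked for exclusion: 3327 of 27445 CD1 cells and 6896 of 25436 C57BL/6 cells, or 10223 of the 76801 cells of the whole series. CD1 is an outbred stock and C57BL/6 an inbred strain, both without an engineered allele or a treatment. CD1 hearts covered 18 stages from E9.5 to P9 and C57BL/6 hearts 17 stages from E10.5 to P9, where E counts embryonic days and P days after birth. Each heart was cut into left and right atrium (LA, RA) and left and right ventricle (LV, RV), called zones, which gave 72 CD1 and 68 C57BL/6 samples. The LV samples also held the septum and the atrioventricular canal. Every sample was a pool of several hearts of 1 stage, so the tests below take stages as the repeated units and do not measure the spread between animals. The tables hold cell annotations and no gene values, so Col1a1 and Postn, the genes that mark these cells, could not be checked, and the label rests on the annotation alone.

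Cardiac fibroblasts lay down and remodel the collagen-rich matrix between the muscle cells. Most descend from the epicardium, whose cells leave the surface of the heart, turn mesenchymal and invade the wall, and others descend from the endocardium of the cushions that form valves and septa. Col1a1 encodes a chain of type I collagen, and Postn encodes periostin, a matrix protein of cushion and fibroblast cells. The other non-myocytes captured with them were endocardial and vascular endothelial cells (Endo_ECs, Vas_ECs), epicardial cells (Epi), pericytes, smooth muscle cells (SMCs), macrophages and blood.

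The cells came from 3 CD1 experiments, an early one (E9.5 to P3), one of E18 and P1 and a late one (P2 to P9), and from 2 C57BL/6 experiments, an early one (E10.5 to P4) and a late one (P5 to P9), so stage and experiment overlapped only in part. A sample held 11 to 590 non-myocytes in CD1 and 6 to 3213 in C57BL/6, and 58 CD1 and 55 C57BL/6 samples held at least 10 Fb_like cells. One sample stood apart: the C57BL/6 E13.5 RV sample contributed 1916 of the 6896 Fb_like cells of its strain. The sharing of a cell barcode between wells touched 22 CD1 and 37 C57BL/6 Fb_like cells, and no shared barcode joined Fb_like cells of the same stage and zone. Wells of the same experiment differed little in the share of Fb_like cells, from 26.2 to 28.2% over the 5 wells of the early CD1 experiment and from 41.8 to 43.8% over the 4 wells of the early C57BL/6 experiment. Their median depth ran from 8756 to 12182 and from 8304.5 to 11930 UMIs (unique molecular identifiers, the count of RNA molecules read per cell).

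The population was already sorted once by the annotation. Of the cells called fibroblast-like in a first round, 86.2% of 3858 in CD1 and 92.8% of 7434 in C57BL/6 kept that type, 9.05% and 5.07% became pericytes, and 4.72% and 2.17% became SMCs. Among the cells that stayed, 204 CD1 cells (6.13%) carried a mark of uncertain valve origin and 12 a mark of uncertain neural crest origin. In C57BL/6, 802 cells (11.6%) were marked unsure and 28 carried a mark of Schwann cells, the glia of peripheral nerves. These cells were kept, and values without them are given where they differ.

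To ask how the population grew against the other non-myocytes, the share of Fb_like cells among non-myocytes was taken in each sample with at least 10 non-myocytes (72 CD1 and 66 C57BL/6 samples) and the zones of each stage were then averaged. In CD1 the share was 5.44% at E9.5, 4.18% at E10.5 and 9.77% at E11.5, reached 25.3% at E12.5, and lay between 24.4 and 47.6% at every later stage. At E10.5 no Fb_like cell was found among 72 LA and 47 RA non-myocytes, which allows shares of up to 4.17% and 6.38%. In C57BL/6 the share was 22.0% at E10.5, 22.8% at E11.5 and 46.5% at E12.5, and then stayed between 30.2 and 49.8%. The E12.5 mean included an LA sample of 15 non-myocytes (73.3% Fb_like), beside 37.5% in LV, 15.7% in RA and 59.6% in RV. The E10.5 mean included an LA sample of 10 non-myocytes, 2 of them Fb_like. With the cells of all zones pooled, the C57BL/6 shares were 34.4% at E10.5, 20.3% at E11.5 and 49.8% at E12.5. The highest stage was P5 in both strains. Fb_like cells were the most frequent non-myocyte type at 13 of 18 CD1 and 15 of 17 C57BL/6 stages. Blood was ahead at the first 3 CD1 stages, Epi at CD1 E12.5 (32.4%) and Endo_ECs at CD1 P0 (27.7%).

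**Figure D1:**
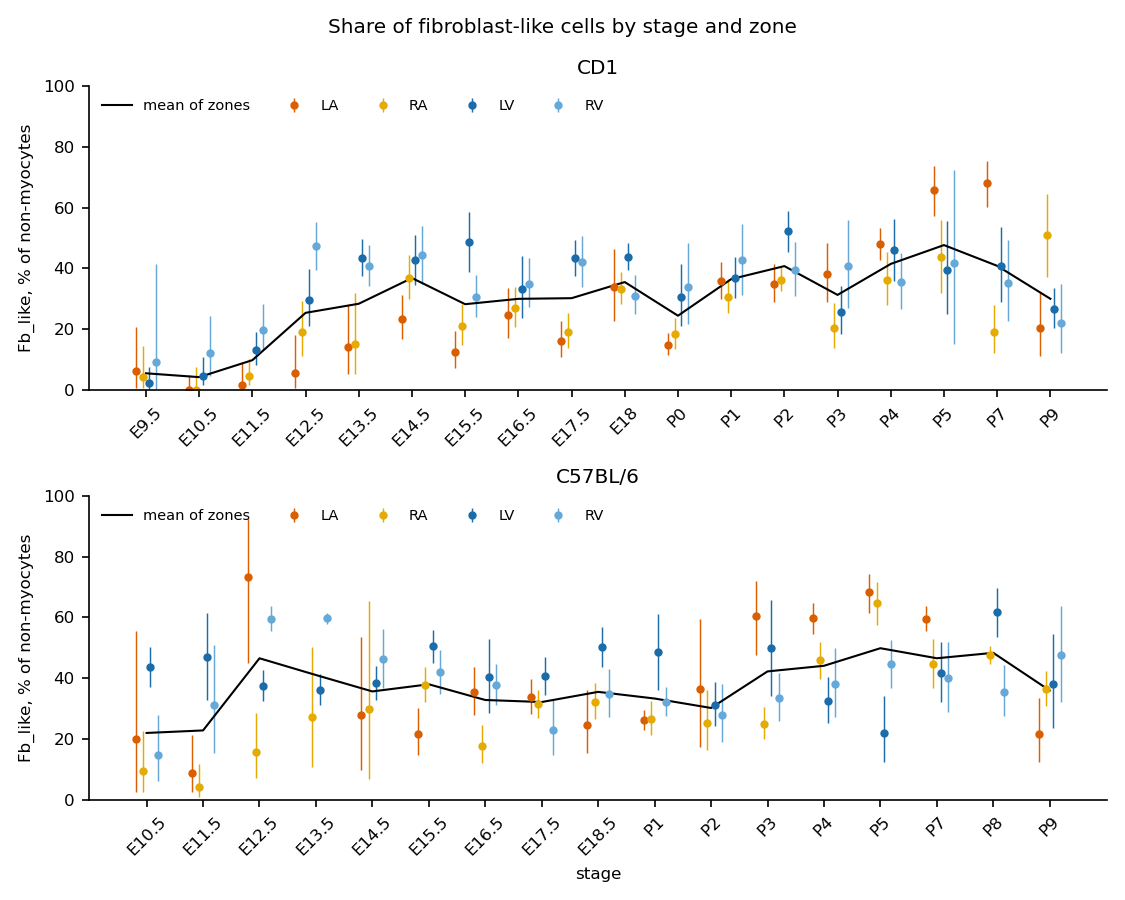
Share of Fb_like cells among the non-myocytes of each sample (y axis, percent) by stage (x axis) in CD1 and C57BL/6, coloured by zone, with exact 95% binomial intervals that cover counting error only; the black line joins the means over zones. The CD1 line climbs from 5.44% at E9.5 to 25.3% at E12.5, and both lines peak at P5, at 47.6% and 49.8%.

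Over stages the CD1 share rose, with a Spearman's rho of 0.763 (permutation p = 0.00041, adjusted p over the 2 strains = 0.00082, n = 18 stages) and a Pearson's r of 0.778 (permutation p = 0.0001). The relation held without the 2 stages farthest from the middle (r = 0.806) and within the early CD1 experiment (rho = 0.753, r = 0.779, n = 13). Over the 7 stages left without that experiment, which start at E18, rho was 0. By period, it was 11.2% ± 9.74 (SD, n = 4 stages) from E9.5 to E12.5, 31.5% ± 3.71 (n = 6) from E13.5 to E18.5 and 36.6% ± 7.58 (n = 8) from P0 to P9. The step of 20.3 percentage points at midgestation had an exact permutation p of 0.00476, the smallest these stages can give (adjusted p = 0.0190 over 4 steps). The step of 5.10 points across birth did not pass (exact permutation p = 0.156, adjusted p = 0.208). The largest step between neighbouring CD1 stages before birth was the one from E11.5 to E12.5. Blood made up 60.2% of CD1 non-myocytes at E9.5, 58.9% at E10.5 and 32.4% at E11.5. With blood cells out of the denominator, CD1 rho was 0.777 (permutation p = 0.00026). The CD1 midgestation step was then 16.7 points (exact permutation p = 0.00476, adjusted p = 0.0190).

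The C57BL/6 share also rose over all stages (rho = 0.544, permutation p = 0.0258 and r = 0.563, permutation p = 0.0195, n = 17), but the relation did not hold within the early C57BL/6 experiment (rho = 0.286, permutation p = 0.344 and r = 0.386, permutation p = 0.191, n = 13). It also fell to rho = 0.127 (permutation p = 0.624) when blood cells were taken out of the denominator, blood making up 47.4% and 51.7% of non-myocytes at the first 2 stages. Period means were 30.4% ± 14.0 (SD, n = 3), 35.8% ± 3.30 (n = 6) and 41.3% ± 7.32 (n = 8), and neither step passed (exact permutation p = 0.393 and 0.117). The midgestation step was 5.41 points, and 9.29 with a minimum of 20 non-myocytes in a sample (exact permutation p = 0.0714, adjusted p = 0.143). Among all cells, cardiomyocytes included, the step across birth was larger and passed in both strains (17.8 points in CD1 and 12.3 in C57BL/6, both with an adjusted exact permutation p of 0.0127). Postnatal LV and RV suspensions had also been passed through a coarser strainer, and its part in the shares was not tested. The paper states that late neonatal ventricular cardiomyocytes were too large for the capture device, so fewer were sampled. Such a loss raises the share of any non-myocyte type among all cells. In the CD1 LV, non-myocytes were 275 of 480 cells at E17.5 and 486 of 2091 at E18. They were 43 of 45 at P5, 66 of 66 at P7 and 184 of 185 at P9. The part of this loss in the step across birth was not tested, so that step need not be a gain of Fb_like cells.

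Atrial and ventricular samples were then taken apart. Atrial samples (mean of LA and RA) averaged 5.15% ± 5.17 in CD1 from E9.5 to E12.5, 23.1% ± 7.86 from E13.5 to E18.5 and 36.3% ± 11.2 after birth (SD, n = 4, 6 and 8 stages). Ventricular samples went from 17.2% ± 14.9 to 39.9% ± 3.58 and 36.8% ± 6.66. In C57BL/6, atria held 21.9% ± 19.98, 29.2% ± 2.19 and 42.9% ± 15.0 (n = 3, 5 and 7) and ventricles 38.9% ± 9.71, 41.6% ± 5.77 and 39.1% ± 6.06 (n = 3, 6 and 8). The atrial share rose with stage in CD1 (rho = 0.899, r = 0.878, adjusted permutation p of both = 4e-05 over 4 relations, n = 18) and in C57BL/6 (rho = 0.637, adjusted permutation p = 0.0138 and r = 0.653, adjusted permutation p = 0.00754, n = 17, with RA alone at E13.5 and P8). Without the 2 farthest stages r was 0.883 and 0.723. Within the early experiments it held in CD1 (rho = 0.802, permutation p = 0.00159 and r = 0.822, permutation p = 0.00091, n = 13) and by r but not by rank in C57BL/6 (rho = 0.538, permutation p = 0.0612 and r = 0.631, permutation p = 0.0188, n = 13). The ventricular share did not pass in CD1 (rho = 0.255, adjusted permutation p = 0.407 and r = 0.474, adjusted permutation p = 0.0628) or in C57BL/6 (rho = 0.0735, adjusted permutation p = 0.779 and r = 0.0111, adjusted permutation p = 0.966). Within the early experiments it rose by r but not by rank in CD1 (rho = 0.434, permutation p = 0.140 and r = 0.653, permutation p = 0.0154, n = 13). In C57BL/6 it did not rise (rho = -0.203, permutation p = 0.505 and r = -0.206, permutation p = 0.494, n = 13).

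The difference itself, atrial minus ventricular share, was set against stage as the test of unequal change. It rose with stage in CD1 (rho = 0.598, r = 0.619, n = 18) and in C57BL/6 (rho = 0.632, r = 0.631, n = 15), each with an adjusted permutation p of 0.0377 for rho and 0.0298 for r over 6 relations. The r was 0.707 and 0.801 without the 2 farthest stages. Within the early C57BL/6 experiment it held (rho = 0.685, permutation p = 0.0174 and r = 0.707, permutation p = 0.00869, n = 12). Within the early CD1 experiment it did not (rho = 0.0110, permutation p = 0.978 and r = -0.0257, permutation p = 0.932, n = 13), so in CD1 the trend rests on the later experiments. At CD1 P2, LA and RA held 28.9 and 25.9% in the early experiment, against 47.8 and 50% in LV and RV. In the late one they held 41.2 and 40.3%, against 53.3 and 36.9%. At P1 the early values were 35.6 and 25.9% against 33.3 and 37.5%. Those of the experiment of E18 and P1 were 35.9 and 35.7% against 37.4 and 46.5%. The part of the experiment in the CD1 trend was not tested. Before birth the atria were below the ventricles by 14.9 points in CD1 (n = 10 stages) and 13.3 points in C57BL/6 (n = 8). After birth the difference was -0.508 (n = 8) and 5.19 points (n = 7). The change across birth had permutation p = 0.00976 and 0.0191, and neither passed after adjustment over the 30 such changes compared (adjusted p = 0.287).

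**Figure D2:**
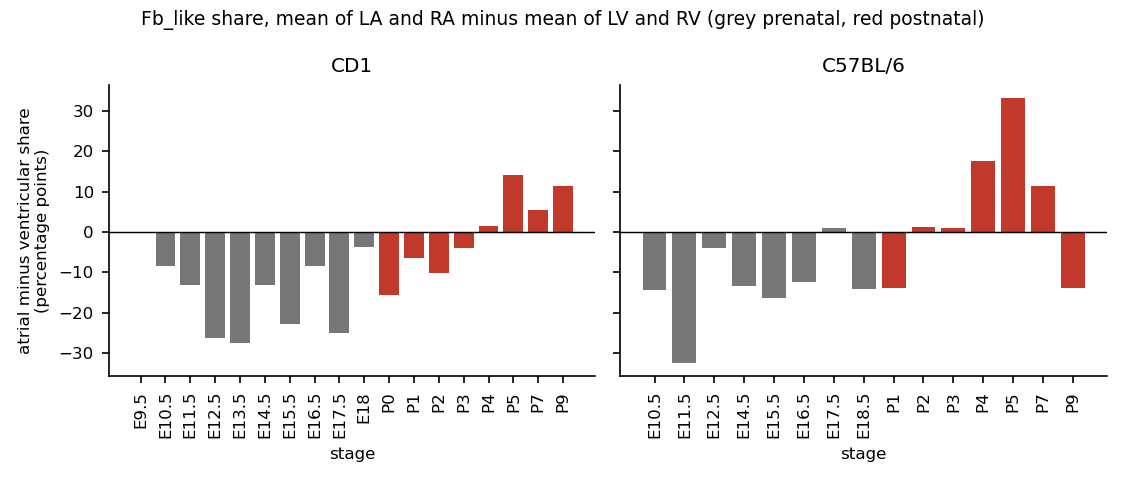
Atrial share of Fb_like cells (mean of LA and RA) minus ventricular share (mean of LV and RV) in percentage points (y axis) for every stage with all zones measured (x axis); grey bars are stages before birth and red bars stages after it. Prenatal bars lie mostly below 0, and the difference averaged -14.9 points in CD1 and -13.3 in C57BL/6 before birth against -0.508 and 5.19 after it. The experiments behind the bars also changed with stage.

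Single samples show how widely the late atrial shares ranged. In CD1 the LA held 65.7% Fb_like cells at P5 (90 of 137 non-myocytes, exact 95% interval 57.1 to 73.6%) and 68.1% at P7 (109 of 160, 60.3 to 75.3%), while the P7 RA held 19.0% (20 of 105). In C57BL/6 the P5 LA held 68.2% (148 of 217), the P5 RA 64.7% (123 of 190) and the P5 LV 21.9% (14 of 64). At P9 the C57BL/6 atria were below the ventricles (29.0% against 42.9%), and the postnatal CD1 LA went down to 14.8%. Taken over all stages, atria minus ventricles was -8.51 points in CD1 (95% interval -14.6 to -2.37, exact permutation p = 0.0101, adjusted p = 0.0606, atria higher at 4 of 18 stages). It was -14.1 points without the late CD1 experiment, which passed (adjusted exact permutation p = 0.000732, n = 14), and 2.57 without the early one (n = 7). In C57BL/6 it was -4.68 (-13.4 to 4.39, adjusted exact permutation p = 0.567). LA minus RA was 1.55 points in CD1 and 8.71 in C57BL/6 (-1.19 to 19.3), and LV minus RV was -0.0283 points (-4.82 to 4.76) and 3.64 (-5.06 to 12.3). None of these 4 passed.

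Between strains, the share was lower in CD1 than in C57BL/6 by 5.45 points over 16 matched stages (31.3% ± 11.2 against 36.8% ± 8.06, SD, 95% interval of the difference -9.70 to -1.20, exact permutation p = 0.0148), with CD1 higher at 3 of 16. CD1 E18 was set against C57BL/6 E18.5, and without that pair the difference was -5.81 points (exact permutation p = 0.0149). Without the cells marked unsure, valve, neural crest or Schwann the difference was -2.86 points and did not pass (exact permutation p = 0.204). Without the early CD1 experiment it was 0.260 points over 7 stages. Strain and experiment cannot be told apart, since no experiment held both.

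Samples of the same stage and zone were made more than once in CD1, which gives a view of the spread. The P1 LA samples of both experiments agreed within counting error (35.9% and 35.6%), as did the P1 LV samples (37.4% and 33.3%). The P2 RA samples held 25.9% (exact 95% interval 19.4 to 33.3%, n = 166) and 40.3% (35.6 to 45.2%, n = 424), at a median depth of 7602 and 20860 UMIs. Their intervals did not overlap. The other P1 pairs were 35.7% and 25.9% in the RA and 46.5% and 37.5% in the RV. At P2 they were 28.9% and 41.2% in the LA, 47.8% and 53.3% in the LV and 50% and 36.9% in the RV. The intervals of these pairs overlapped, which is not a test of their difference. At P1 every zone had a higher share in the experiment of E18 and P1 than in the early one. At P2 every zone but the RV had a higher share in the late experiment than in the early one.

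The population was also divided by sub-cluster. The annotation split the Fb_like cells into 14 sub-clusters in CD1 and 15 in C57BL/6, numbered separately in each strain and made from expression, while the zone came from the sample barcode. For the 12 CD1 and 14 C57BL/6 sub-clusters of at least 50 cells, the share among a sample's Fb_like cells was compared between zones within stages. Atria and ventricles differed in 6 of 12 CD1 and 6 of 14 C57BL/6 sub-clusters, LA and RA in 3 and 2, and LV and RV in 0 of 12 and 0 of 14 (exact permutation tests over stages, adjusted over all contrasts of a strain; 1 LV against RV test in each strain had an unadjusted p under 0.05). Differences between LV and RV were at most 3.24 points in CD1 and 3.32 in C57BL/6, and their 95% intervals lay within -8.78 to 9.70 and -8.79 to 7.19 points. These calls did not hold under every setting. With a minimum of 20 Fb_like cells in a sample, 0 of 36 CD1 and 0 of 42 C57BL/6 contrasts passed by the same exact test (12 and 10 at an unadjusted p under 0.05). Leaving out the early or the late experiment of CD1 also gave 0 (8 unadjusted each), as did leaving out the early (0 unadjusted) or the late (11 unadjusted) experiment of C57BL/6. Each of these settings also left fewer stages, which makes the exact test coarser. The C57BL/6 stages from P5 to P9 alone were too few for any contrast to reach an unadjusted p under 0.05. The direction of each difference that passed was kept in all 107 recomputations.

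**Figure D3:**
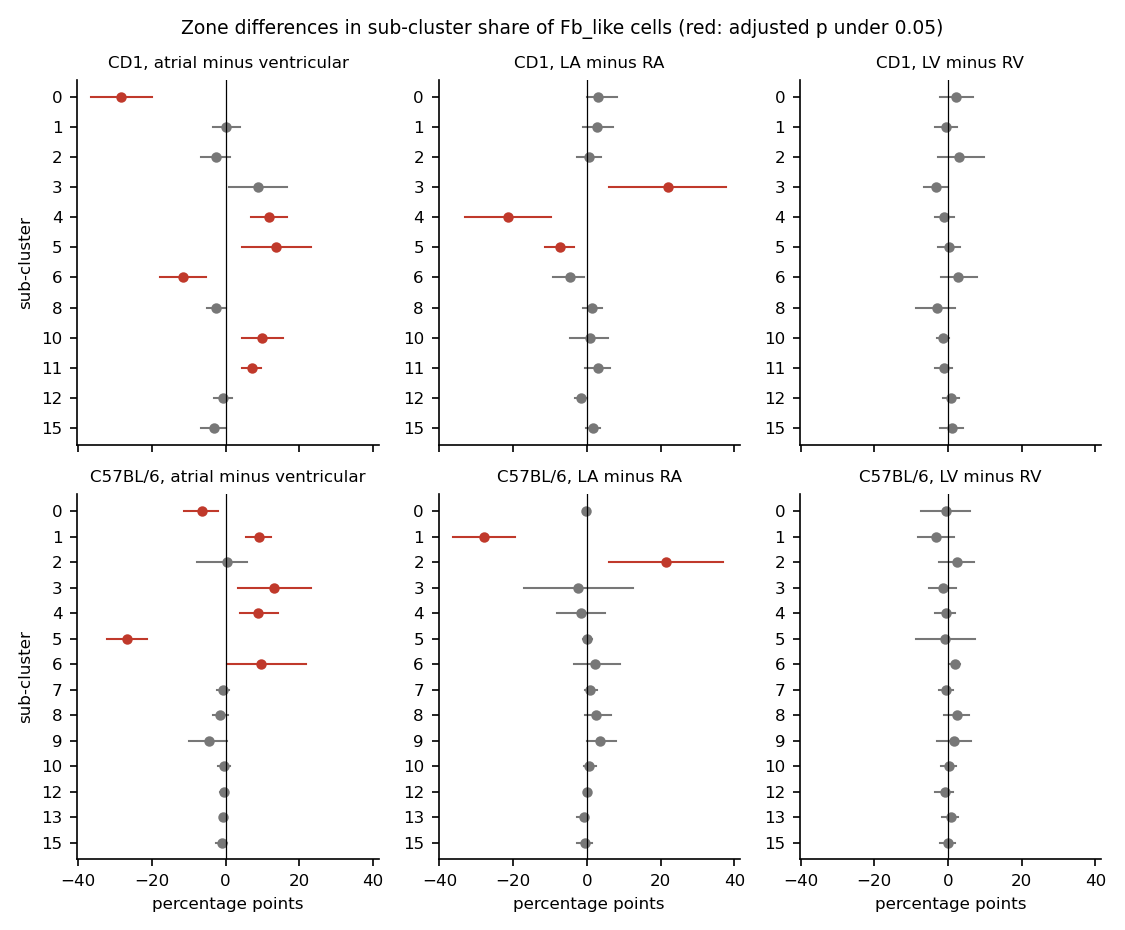
Mean difference between zones in the share of each sub-cluster among Fb_like cells (x axis, percentage points) with 95% intervals from the permutation test over stages, for each sub-cluster (y axis) of CD1 (top) and C57BL/6 (bottom); red marks an adjusted p under 0.05. The atrial against ventricular panels hold 6 red points each, the LA against RA panels 3 and 2, and the LV against RV panels 0, with every point within 3.32 points of 0.

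Averaged over the stages with enough atrial cells, 1 sub-cluster in each strain stood out in the ventricles. CD1 sub-cluster 0 (410 cells) made up 30.8% of ventricular and 2.30% of atrial Fb_like cells (difference -28.5 points, 95% interval -36.5 to -20.1, adjusted exact permutation p = 0.00703, n = 12 stages, atria higher at 1). CD1 sub-cluster 6 followed with 14.8% against 3.29% (adjusted exact permutation p = 0.0176). C57BL/6 sub-cluster 5 (507 cells) made up 28.1% of ventricular and 1.19% of atrial Fb_like cells (adjusted exact permutation p = 0.0273, lower in the atria at all 10 stages). C57BL/6 sub-cluster 0, the largest with 1130 cells, held 6.69% against 0.192%. Of its cells, 61.7% came from the E13.5 RV sample, a stage that was not in this test because its atrial samples held fewer than 10 Fb_like cells. Atria gave 5.85% of the cells of CD1 sub-cluster 0 and 9.86% of those of C57BL/6 sub-cluster 5.

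The atria held 4 sub-clusters each that passed as higher there: CD1 4, 5, 10 and 11 (7.08 to 13.7 points higher) and C57BL/6 1, 3, 4 and 6 (8.70 to 13.1 points higher). By cells, 31.5% of C57BL/6 sub-cluster 6 came from atria and 45.1% came from the E13.5 RV sample, which was not in this test, and its difference of 9.55 points had an SD of 16.2 over 10 stages. CD1 sub-clusters 10 and 11 took similar parts of LA and RA, at 12.1% against 11.3% and 10.49% against 7.60%. C57BL/6 sub-clusters 3 and 4 took 18.8% against 21.2% and 18.3% against 19.96%. The left-right differences of these 4 did not pass.

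Left and right atria differed in a pair of sub-clusters in each strain. Higher in the LA, CD1 sub-cluster 3 (381 cells, 81.4% of them from LA) made up 26.2% of LA and 4.09% of RA Fb_like cells (22.1 points, 95% interval 6.11 to 37.8, adjusted exact permutation p = 0.0234, n = 13 stages). C57BL/6 sub-cluster 2 (649 cells, 68.3% from LA) made up 23.9% and 2.30% (21.6 points, 6.15 to 36.9, adjusted exact permutation p = 0.0273, n = 10). Higher in the RA, CD1 sub-cluster 4 (330 cells, 68.2% from RA) made up 7.31% of LA and 28.6% of RA (-21.3 points, -33.1 to -9.63, adjusted exact permutation p = 0.0132). C57BL/6 sub-cluster 1 (870 cells, 71.1% from RA) made up 6.43% and 34.3% (-27.9 points, -36.3 to -19.6, adjusted exact permutation p = 0.0273, lower in the LA at all 10 stages). CD1 sub-cluster 5 was the third that passed in CD1, 7.32 points lower in the LA.

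The sub-clusters higher in the LA were almost wholly postnatal: 95.8% of CD1 sub-cluster 3 and 98.0% of C57BL/6 sub-cluster 2 were cells of P0 to P9. In the CD1 LA, sub-cluster 3 made up 0 of 26 Fb_like cells at E17.5 (which allows a share of up to 11.5%), 1 of 23 at E18 and 0 of 56 at P0 (up to 5.36%). It then held 46.7% at P1, 15.9% at P2, 41.0% at P3, 58.8% at P4, 66.7% at P5, 62.4% at P7 and 38.5% at P9 (5 of 13 cells). In the CD1 RA it was highest at P3 (5 of 25 cells) and P9 (4 of 29), and at the other stages it made up 0 to 3.74%. In the C57BL/6 LA, sub-cluster 2 held 5.32% at E17.5, 5.56% at E18.5, 10.9% at P1, 19.5% at P3, 47.7% at P4, 55.4% at P5, 61.7% at P7 and 28.6% at P9 (4 of 14 cells), against 0 to 8.70% in the RA. C57BL/6 sub-cluster 2 was not confined to the LA: it made up 41.9% of LV and 26.7% of RV Fb_like cells at P7, 67.4% and 50% at P8, and 37.5% and 50% at P9, and over stages atria and ventricles held 13.1% and 12.7% (adjusted exact permutation p = 0.964). CD1 sub-cluster 3 held 13.49% of atrial and 4.74% of ventricular Fb_like cells (adjusted exact permutation p = 0.0959). In C57BL/6 the P4 samples came from the early experiment and the P5 and P7 samples from the late one. In CD1, E17.5, P0 and P3 came from the early experiment, E18 from that of E18 and P1, and P4 to P9 from the late one. The CD1 P1 and P2 samples pooled cells of the early experiment with those of another. The stage at which a sub-cluster appears is a description, since the sub-clusters were made from these cells.

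The sub-clusters higher in the RA began earlier. CD1 sub-cluster 4 held 16.2% of RA Fb_like cells at E17.5 and 18.52% at E18, against 15.4% and 26.1% in the LA. From P0 on it held between 31.0 and 67.7% of the RA, against 0 to 14.3% of the LA. C57BL/6 sub-cluster 1 held 26.7% of the RA at E17.5 and 33.7% at E18.5, and 35.8 to 57.1% at the stages after birth, against 0 to 14.6% in the LA after birth. C57BL/6 sub-cluster 1 was not confined to the RA. It made up 21.0% of LV Fb_like cells at E18.5, and 29.4% of RV cells at P1, 22% at P3 and 23.0% at P5. At P8 it made up 0 of 92 LV and 0 of 48 RV cells.

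**Figure D4:**
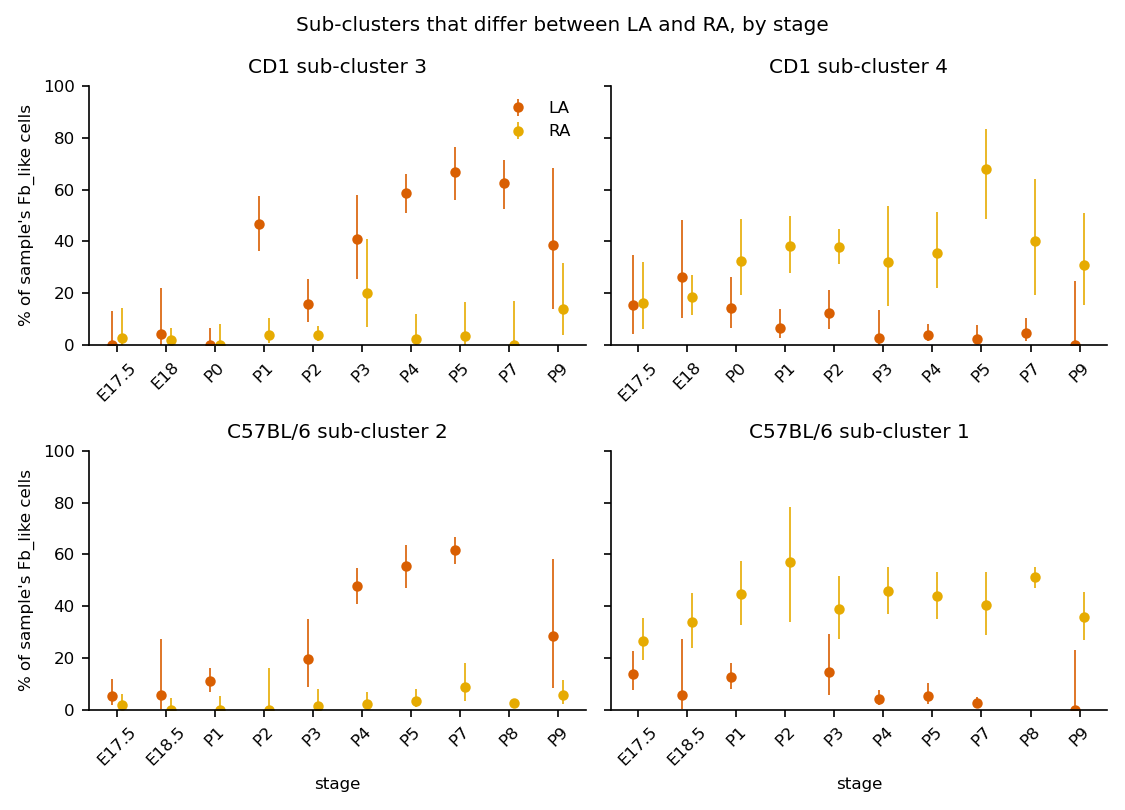
Share of a sample's Fb_like cells in the sub-clusters higher in the LA (CD1 3, C57BL/6 2) and those higher in the RA (CD1 4, C57BL/6 1) from E17.5 to P9 (x axis) in LA and RA samples of at least 10 Fb_like cells, with exact 95% binomial intervals. The former climb in the LA to 66.7% (CD1 P5) and 61.7% (C57BL/6 P7), and the latter make up 31.0% or more of RA Fb_like cells from P0 on. Ventricles, which are not plotted, also reached high shares of C57BL/6 sub-cluster 2, and 29.4% of C57BL/6 sub-cluster 1 in the P1 RV.

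The cells marked as uncertain valve were CD1 sub-cluster 8. They made up 45.6% of the 193 Fb_like cells of E9.5 to E12.5 (exact 95% interval 38.4 to 52.9%), 5.08% of 1399 cells from E13.5 to E18.5 and 2.59% of 1735 cells after birth. By zone, 101 of the 204 cells came from RV and 74 from LV, against 26 from LA and 3 from RA. The 28 Schwann-marked cells of C57BL/6 were mostly late and atrial, with 26 of them after birth and 25 in the atria.

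Sub-clusters of low depth stood apart in both strains. CD1 sub-cluster 12 (132 cells) had a median of 3058.5 UMIs, 13.4% mitochondrial and 8.71% ribosomal UMIs, while the median over all CD1 Fb_like cells was 12952 UMIs, 3.65% and 19.3%. C57BL/6 sub-clusters 9, 10 and 13, which held all 802 cells marked unsure, had medians of 2750.5 to 3582.5 UMIs and 11.3 to 17.7% mitochondrial UMIs, against 10010 UMIs and 3.43% over all C57BL/6 Fb_like cells. None of their zone differences passed, and the E13.5 RV sample gave 65.0% of C57BL/6 sub-cluster 10 and 54.9% of sub-cluster 13. C57BL/6 sub-cluster 12 was close to a single zone and stage instead, with 220 of 223 cells from RV and 168 from E13.5.

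For the depth and quality of the cells, the median of each sample with at least 10 Fb_like cells was used, on the log2 scale for UMIs and detected genes and in percent for mitochondrial and ribosomal UMIs. Some early stages had ventricular samples only, so the zones behind a stage mean changed with stage. In C57BL/6, E10.5 and E11.5 had LV alone, and E13.5 and E14.5 had LV and RV. In CD1, E11.5 and E13.5 had LV and RV. The mitochondrial percent fell with stage in both strains. Stage means over CD1 were 4.78% ± 0.171 (SD, n = 2 stages) up to E12.5, 4.32% ± 1.01 (n = 6) up to E18.5 and 3.52% ± 0.217 (n = 8) after birth. In C57BL/6 they were 4.21% ± 0.577 (n = 3), 3.74% ± 0.366 (n = 6) and 3.11% ± 0.176 (n = 8). The relation with stage was rho = -0.762 in CD1 (r = -0.731, adjusted permutation p = 0.00388 over 8 relations, n = 16) and rho = -0.895 in C57BL/6 (r = -0.844, adjusted permutation p = 0.00016, n = 17). It held without the 2 farthest stages (r = -0.707 and -0.819) and within the longest experiment of each strain (rho = -0.8, r = -0.779, n = 11 and rho = -0.780, r = -0.756, n = 13). Over the 7 CD1 stages left without the early experiment it was rho = 0.643.

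The other non-myocytes of the same samples, blood left out, had lower mitochondrial percents at later stages too (rho = -0.688, r = -0.671 in CD1 and rho = -0.934, r = -0.932 in C57BL/6). Within the early experiments this relation was rho = -0.518 (permutation p = 0.107) in CD1 and rho = -0.874 (permutation p = 0.00016) in C57BL/6. In C57BL/6 the gap between Fb_like cells and the others closed, from -1.60 points at E10.5 (LV alone) to -0.0823 at P9 (all zones) (rho = 0.836, r = 0.848, adjusted permutation p = 0.000187 over 8 gaps). It closed within the early experiment as well (rho = 0.654, permutation p = 0.0190 and r = 0.665, permutation p = 0.0150, n = 13). In CD1 the gap had rho = 0.0618 (adjusted permutation p = 0.822). The mix of types among the other non-myocytes also changed with stage, and its part in these gaps was not tested. By type, the mean C57BL/6 gap ran from -2.98 points to Endo_ECs to 0.0116 points to macrophages.

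Depth moved with the experiments. CD1 Fb_like cells had a stage median of 8383 to 15978 UMIs from E13.5 to E18.5 and 9145 to 17816 after birth, with rho = 0.462 over all stages (adjusted permutation p = 0.0900) but rho = -0.564 (permutation p = 0.0759) and r = -0.682 (permutation p = 0.0172) within the early CD1 experiment. Against the other non-myocytes of the same samples, whose mix of types also changed with stage, the gap in log2 UMIs grew in CD1 from 0.0298 at E11.5 (LV and RV alone) to 0.648 at P9 (rho = 0.882, r = 0.868, adjusted permutation p = 0.00012). The gap in log2 genes grew from 0.0196 to 0.360 (rho = 0.9, r = 0.867, adjusted permutation p = 0.00012). Both held within the early CD1 experiment (rho = 0.773 and 0.836, r = 0.755 and 0.876, permutation p of rho = 0.00732 and 0.00242, n = 11) and without the 2 farthest stages (r = 0.854 and 0.861). In C57BL/6 the number of genes fell with stage (rho = -0.620, r = -0.612, adjusted permutation p = 0.0257), which did not hold within the early C57BL/6 experiment by rank (rho = -0.544, permutation p = 0.0580 and r = -0.628, permutation p = 0.0152). With means of cells in place of medians it was rho = -0.189 (adjusted permutation p = 0.529). The gaps in UMIs and genes did not pass (r = 0.372 and 0.378, adjusted permutation p of rho = 0.225 for both), although without the 2 farthest stages r was 0.652 and 0.633.

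**Figure D5:**
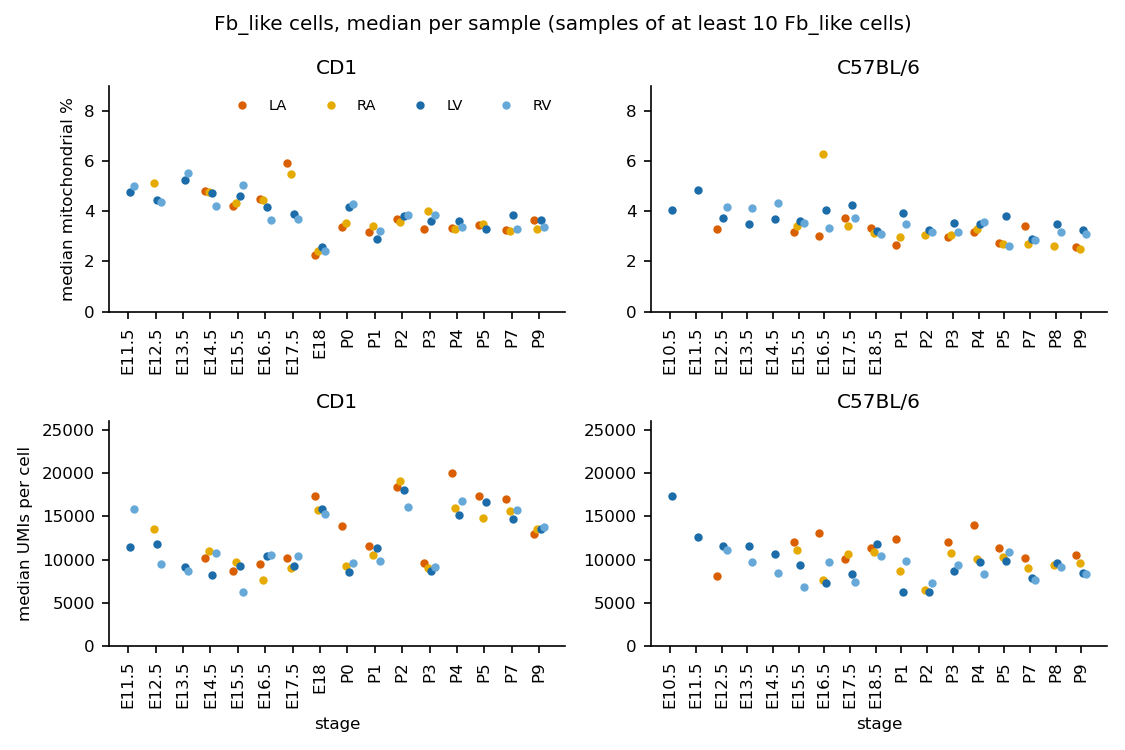
Median mitochondrial percent (top) and median UMIs per cell (bottom) of Fb_like cells in each sample of at least 10 Fb_like cells (points, coloured by zone) by stage (x axis) in CD1 and C57BL/6. Mitochondrial percents drift down in both strains, to stage means of 3.52% and 3.11% after birth, and the CD1 UMIs are highest at P2, P4, P5 and E18 and drop to 9145 at P3, a stage of the early experiment alone.

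Within samples, Fb_like cells had more UMIs than 4 of 6 other non-myocyte types in CD1 and 1 of 6 in C57BL/6, and no type had more UMIs by the test. Taken within each experiment, the CD1 difference from Epi no longer passed (0.24 on the log2 scale, adjusted exact permutation p = 0.0670). Against Endo_ECs, UMIs were 1.35-fold higher in CD1 and 1.30-fold higher in C57BL/6 (0.43 and 0.38 on the log2 scale, higher at 16 and 15 of 16 stages). Mitochondrial percents were 3.96% against 7.37% in CD1 and 3.42% against 6.40% in C57BL/6, lower at all 16 stages of each strain (adjusted exact permutation p = 0.000366 for both mitochondrial differences). The mitochondrial percent was lower than in 5 of 6 types in CD1 and 3 of 6 in C57BL/6. With means of cells in place of medians, 2 of these differences changed sign, to 0.0612 points against CD1 macrophages and 0.204 against C57BL/6 pericytes. Against macrophages, Fb_like cells had 1.32-fold more genes in CD1 and 1.15-fold more in C57BL/6 (adjusted exact permutation p = 0.00228 and 0.0125, n = 15 stages each). Against Vas_ECs, UMIs had a ratio of 0.974 and 0.946 and did not pass in either strain (adjusted exact permutation p = 0.866 and 0.470). Of all 48 differences, 21 passed. SMCs could be compared at 4 CD1 and 3 C57BL/6 stages, too few for the exact test to pass.

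Between zones, 4 of 24 comparisons of these measures passed, all of them small. C57BL/6 atrial Fb_like cells had 1.23-fold more UMIs (95% interval 1.13 to 1.32) and 1.12-fold more genes than ventricular ones (adjusted exact permutation p = 0.0469 for both, n = 10 stages, UMIs higher at all 10). LA cells had 1.18-fold more UMIs than RA cells in C57BL/6 (adjusted exact permutation p = 0.0469), and 1.06-fold more genes in CD1 (adjusted exact permutation p = 0.0483, n = 13). In cells of 8000 to 16000 UMIs, 0 of the 24 passed (4 at an unadjusted p under 0.05). That band restricts UMIs, and genes with them, so it cannot decide whether the differences in UMIs and genes hold. The zone effects of the share and of these measures were also compared between strains, and none of the 15 differences passed. The smallest adjusted exact permutation p was 0.0586, for atrial against ventricular UMIs and genes (0.0430 log2 in CD1 against 0.321 in C57BL/6 for UMIs over 9 matched stages, with CD1 E18 set against C57BL/6 E18.5).

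Between strains, CD1 Fb_like cells had 1.21-fold more UMIs (95% interval 1.01 to 1.46, adjusted exact permutation p = 0.0347), 1.15-fold more genes (1.04 to 1.27, adjusted exact permutation p = 0.0172) and a ribosomal percent of 18.9% against 20.3% (-1.34 points, -1.95 to -0.733, adjusted exact permutation p = 0.00171, lower at 13 of 15 stages). The mitochondrial percent was 3.95% against 3.54% (0.41 points, 0.0970 to 0.723, adjusted exact permutation p = 0.0172), which turned to -0.104 when means of cells replaced medians. Without the late CD1 experiment, whose Fb_like cells had a median of 17836 UMIs, the UMI difference was 0.0107 on the log2 scale over 11 stages.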

How the data were processed

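Mouse hearts were profiled by droplet single-cell RNA sequencing with sample barcodes. Per the labels and methods, the authors aligned reads with Cell Ranger 3.1.0 to GRCm38.p4, assigned samples by barcode, filtered cells on depth, genes and mitochondrial percent, removed doublets, integrated experiments and annotated types with Seurat. They deposited 1 row per cell: UMI and gene counts, the mitochondrial and ribosomal percent, a doublet score, and the types, sub-clusters and marks. Further columns (230 of 256), and both mutant tables, were not used.

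Cells were grouped by strain, stage and zone. Shares used samples of at least 10 non-myocytes (2 C57BL/6 LA samples, E13.5 and P8, had fewer); medians used samples of at least 10 Fb_like cells. Zones of a stage were averaged. Correlations used 100000 permutations; contrasts used exact sign flips over stages, and periods exact permutation of stages, 2-sided, with Benjamini-Hochberg adjustment and a threshold of 0.05. 95% intervals of shares are exact binomial and cover counting error only, and a count of 0 allows 3 counts. Tests were tested on simulated data. Python 3.11.15, numpy 2.4.6, pandas 2.3.3 and scipy 1.17.1 were used. The members, groupings and tests were chosen with earlier results of these data known. The alternatives without E13.5, without E18 and E18.5, without the unsure, valve, neural crest or Schwann marks, within 8000 to 16000 UMIs, within postnatal stages and within stage and experiment were added after the data were seen.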

Additional observations from a re-analysis of the deposited data

Results flagged for a closer look

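In 31 groups of 4 to 10 stages, 3 stage values lay far from the others, where chance alone gives about 1 in 20 groups. All 3 were CD1 E18 among the 6 stages from E13.5 to E18.5, the stage that came from the experiment of E18 and P1. They are measures of the same cells, so they do not count as 3 independent groups against that rate. Its median Fb_like depth was 15978 UMIs (nearest stage 9978), its median number of genes 4046 (nearest 3255) and its ribosomal percent 23.4% (nearest 20.8%). The same stage had the lowest mitochondrial percent, 2.41%. The same experiment also held P1, which the early experiment measured too. There its Fb_like medians were 10751.5 to 13005.5 UMIs and 2.61 to 2.89% mitochondrial over the 4 zones, against 6998 to 10908.5 UMIs and 3.69 to 4.31% in the early experiment. E18 itself was measured in 1 experiment, so at that stage the experiment and the stage cannot be told apart.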

How the results depend on the processing

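The 13 share results were recomputed 146 times with 1 choice changed, and 115 values kept their direction and their side of the threshold (12 missed it, 6 newly passed, 13 changed sign). For the depth and quality measures 72 of 130 did so (43 missed, 7 newly passed, 8 changed sign), for the contrasts with other types 121 of 172 (48 missed, 3 changed sign) and for the sub-clusters 50 of 107 (57 missed). The cause of these changes was not tested.

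With all cells as denominator, the steps across birth passed at 17.8 points (CD1) and 12.3 points (C57BL/6), and LV minus RV in C57BL/6 was -0.0259. The lower sampling of late ventricular cardiomyocytes stated by the paper bears on this denominator, and its part was not tested. Without blood, C57BL/6 had rho = 0.127 with stage and a midgestation step of -7.28 points. With a minimum of 20 cells, CD1 atrial minus ventricular passed at -10.4 points and LV minus RV was 0.534. With a minimum of 50 cells, rho with stage (0.513 in CD1, 0.211 in C57BL/6), the CD1 midgestation step (21.4 points) and the strain difference (-5.63) no longer passed, CD1 LV minus RV was 1.58 and C57BL/6 atrial minus ventricular 0.747. With at least 4000 UMIs and at most 20% mitochondrial UMIs, the C57BL/6 step across birth (8.01 points) and CD1 atrial minus ventricular (-9.11) passed. Without the 10% highest doublet scores, C57BL/6 rho was 0.397 and CD1 LV minus RV 0.207. With zones pooled, C57BL/6 rho was 0.191 and the CD1 midgestation step of 20.5 points missed the threshold. With marked cells not counted, which was chosen after seeing the data, CD1 LV minus RV was 1.44 and the strain difference -2.86. Among values that kept their sign and side of the threshold, CD1 atrial minus ventricular was -6.18 points. The CD1 midgestation step was 23.4 points and the C57BL/6 step across birth 7.55.

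Leaving out an experiment moved rho with stage over 0 to 0.784 in CD1 (0 without the early one) and to 0.286 in C57BL/6 without the late one. It moved CD1 atrial minus ventricular over -14.1 (without the late one, past the threshold) to 2.57, LA minus RA over -1.43 to 7.73 and LV minus RV over -2.44 to 5.56, C57BL/6 atrial minus ventricular over -8.41 to 10.2 and LV minus RV over -1.07 to 5.09, and the strain difference over -6.10 to 0.260 points. No value could be had for the midgestation steps without the early experiments, or for C57BL/6 correlations without its early one (under 6 stages).

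Counts past the threshold, out of 8 relations of measures with stage, rose from 3 to 6 in cells of 8000 to 16000 UMIs and were 1 to 3 without an experiment. Of 24 zone contrasts of measures, 0 passed with means for medians, with a minimum of 20 cells (6 unadjusted each), without the highest doublet scores (3) or in the UMI band (4), and 0 to 3 without an experiment. Of 4 strain contrasts, 2 passed with the depth and mitochondrial limits and 0 to 3 without an experiment. Of the type contrasts, 13 of 40 passed in the UMI band and 6 to 20 without an experiment. The UMI band restricts UMIs and genes themselves, so its counts do not test differences in those measures. Of the sub-cluster contrasts, 0 passed with a minimum of 20 cells (12 unadjusted in CD1, 10 in C57BL/6), 0 of 21 in C57BL/6 within 6 postnatal stages (6 unadjusted), where the exact test is too coarse to pass, and 0 to 9 in CD1 and 0 in C57BL/6 without an experiment (0 unadjusted without the early one, 11 without the late one). Without an experiment fewer stages were left, which coarsens these exact tests. Without the early C57BL/6 one they were too few for a C57BL/6 zone or strain contrast to pass.

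Single values changed sign as follows. With means for medians, the strain difference in mitochondrial percent was -0.104 and the mitochondrial gaps were 0.0612 to CD1 macrophages and 0.204 to C57BL/6 pericytes. In the UMI band, log2 genes were -0.0378 for LA minus RA in CD1 and -0.00771 against Endo_ECs in C57BL/6. The rank correlation with stage of CD1 UMIs and genes was 0.407 and 0.396 without the experiment of E18 and P1, -0.143 for both without the early one and -0.280 and -0.294 without the late one. That of CD1 mitochondrial percent ran from -0.911 without the experiment of E18 and P1 to 0.643 over the 7 stages without the early one, and that of C57BL/6 ribosomal percent 0.181 without the late one.

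CD1 P1 and P2 were measured in 2 experiments each, so the contrasts between zones and types were also taken within stage and experiment (a replicate block chosen after seeing the data). CD1 atrial minus ventricular was then -8.60, LA minus RA 1.73 and LV minus RV -0.371 points, 9 of 36 CD1 sub-cluster contrasts passed, and 1 call was lost, that of CD1 UMIs against Epi. C57BL/6 stages were each measured in 1 experiment, and no experiment held both strains. Early atria held few cells, which limits what can be said of them, and the tests measure the spread between stages, not between animals.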
